A study of Mus musculus with 24 samples.

Results

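Binding of the transcription factor Cdx2 was examined at 10 genes of intestinal epithelial adhesion and sealing in mouse colon organoids. The genes were the cadherins Cdh17 and Cdh1, the A33 antigen gene Gpa33, the cell adhesion gene Epcam and the claudins Cldn2, Cldn3, Cldn4, Cldn7, Cldn15 and Cldn23. A binding region was taken as theirs when the summit of a Cdx2 peak lay in the gene body or within 50 kb to either side, which gave 57 regions of 61454 in all (positions in mm10, genes from GENCODE vM21). Cdx2 was mapped by ChIPmentation, in which a transposase adds the sequencing adapters while the chromatin is held on the beads. Colon organoids, proximal and distal, were derived from 3 mice and grown over 4 months with Wnt3a, EGF, Noggin and R-spondin (WENR-plus). One arm stayed on these niche factors, and the other was plated with them for 2 days and then left without them for 3 days (WENR-minus). The 12 Cdx2 libraries fall into 4 groups of 3, by colon site and medium, and 12 input libraries were not analysed here. All groups shared 1 genotype, in which a Cre-inducible BrafV600E allele and a tdTomato reporter were both heterozygous, and the labels name no Cre treatment and no age. The peak lists hold no expression values, so neither the labelled tissue nor the effect of binding on these genes could be checked.

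Epithelial cells are joined by adherens junctions, whose cadherins bind like molecules on neighbouring cells, and by tight junctions, whose claudin strands set how ions and water pass between cells. Some claudins, such as Cldn2 and Cldn15, form pores for small cations, and others mainly seal the space between cells. Cdx2 is the homeobox factor that specifies and maintains intestinal epithelium, and it recognises AT-rich words: here TTTAT followed by G or T and then by A or G, read on either strand.

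Of the 57 regions, 4 held a peak in all 12 libraries, at Cldn7, Epcam (a pair of regions) and Cdh17. Their sequences are given first because these are the sites at which Cdx2 was found in every organoid line and medium. Each is 121 bases of the GRCm38 plus strand (the assembly of mm10), from 60 bases before to 60 after the median summit, and capitals mark the Cdx2 words named above.
Cldn7, 3119 bp upstream of a start site, chr11:69961600-69961720: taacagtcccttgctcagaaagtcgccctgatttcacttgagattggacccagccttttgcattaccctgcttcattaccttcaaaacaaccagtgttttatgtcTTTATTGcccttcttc
Epcam, 10025 bp upstream, chr17:87625894-87626014: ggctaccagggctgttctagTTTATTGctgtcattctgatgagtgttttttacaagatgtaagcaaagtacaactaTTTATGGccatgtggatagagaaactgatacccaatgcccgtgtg
Epcam, 7629 bp upstream, chr17:87628290-87628410: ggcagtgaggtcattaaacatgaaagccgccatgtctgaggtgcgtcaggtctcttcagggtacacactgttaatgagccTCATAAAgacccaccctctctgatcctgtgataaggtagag
Cdh17, 68 bp upstream, chr4:11758019-11758139: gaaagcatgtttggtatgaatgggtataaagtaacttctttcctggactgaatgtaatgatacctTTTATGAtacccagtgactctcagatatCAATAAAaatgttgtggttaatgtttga
The Cdh17 and the first Epcam stretch hold 2 words each, and the other two hold 1. The centre of the nearest word lay 8 bp from the summit at Cdh17, 19 bp and 23 bp at the Epcam regions and 48 bp at Cldn7. Shorter stretches around the nearest word are shown for 4 further regions described below, chosen after their values were seen.
Gpa33, at the start site, chr1:166130183-166130211: ctcgctcccttTTTATTAcacagcaacaa
Cdh1, 31168 bp upstream, chr8:106572154-106572182: gtcattggggtTTTATTGctgtgaacaga
Cdh1, in an intron 34317 bp downstream of a start site, chr8:106638439-106638467: gcctattttgtTTTATTGagactgtagcc
Cldn2, 6894 bp downstream of a start site, chrX:139813001-139813029: ttgcatttccaTCATAAAgtaatttagat

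All 10 genes had at least 1 region, and the number ran from 1 at Cldn23 to 11 at Cdh17, Cdh1 and Cldn3. The median was 6 regions a gene, against a median of 2 (quartiles 1 and 5) over the same window of 21938 protein-coding genes. The genes and lists were chosen with earlier results of these data known. Counts and shares set beside all genes or all regions, here and below, are therefore descriptions and no test of enrichment. Regions shared by neighbouring genes count for each of them, here 8 for both Cldn3 and Cldn4. Of the 57 regions, 22 (38.6%) were called in 1 library, 23 in 2 to 5 libraries, 8 in 6 to 11 and 4 (7.02%) in all 12. Over all 61454 regions, 42.2% were called in 1 library and 3.38% in all 12. Regions called in at least 9 libraries numbered 11 (19.3%) here, against 9.52% of all regions. These 11 lay at Cdh1 (4), Epcam (3), Cdh17 (2), Gpa33 and Cldn7. By annotation, 32 of the 57 summits were intergenic, 23 intronic and 2 in a UTR. Windows of 50 kb reach into neighbouring genes: the nearest start site belonged to one of the 10 genes for 32 regions and to another gene for 25.

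The lists differed in length from 5608 to 42192 peaks, and the number of these regions found in a library differed with them. The regions found numbered 29, 28 and 20 in proximal WENR-plus and 35, 9 and 19 in proximal WENR-minus. Distal organoids had 10, 17 and 9 in WENR-plus, and 21, 10 and 15 in WENR-minus. Group means were 25.7 ± 4.93, 21 ± 13.1, 12 ± 4.36 and 15.3 ± 5.51 in the same order (SD, n = 3 each), and the groups overlapped except that every proximal WENR-plus library lay above every distal WENR-plus library. Per 10000 peaks of a list the order turned around, with 10.1 ± 4.14, 11.6 ± 5.58, 14.1 ± 1.71 and 13.9 ± 4.63 (SD, n = 3 each). The lists hold no read counts, and the read totals stated by the study were not used here, so the absence of a peak means only that none passed the threshold in that list. Strength is given below as the fold percentile, the position of a peak's fold enrichment over input among all peaks of its own list, with 100 the strongest. A percentile depends on how long its list is, so the separations between groups noted below hold for lists of unequal length. Shares of all regions that separate in these ways were not computed, so the separations are descriptions only. Some are between groups that differ in both site and medium. The median fold percentile of the peaks at these genes ran from 34 to 67.4 over the libraries, against 50 for a whole list by construction.

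**Figure D1:**
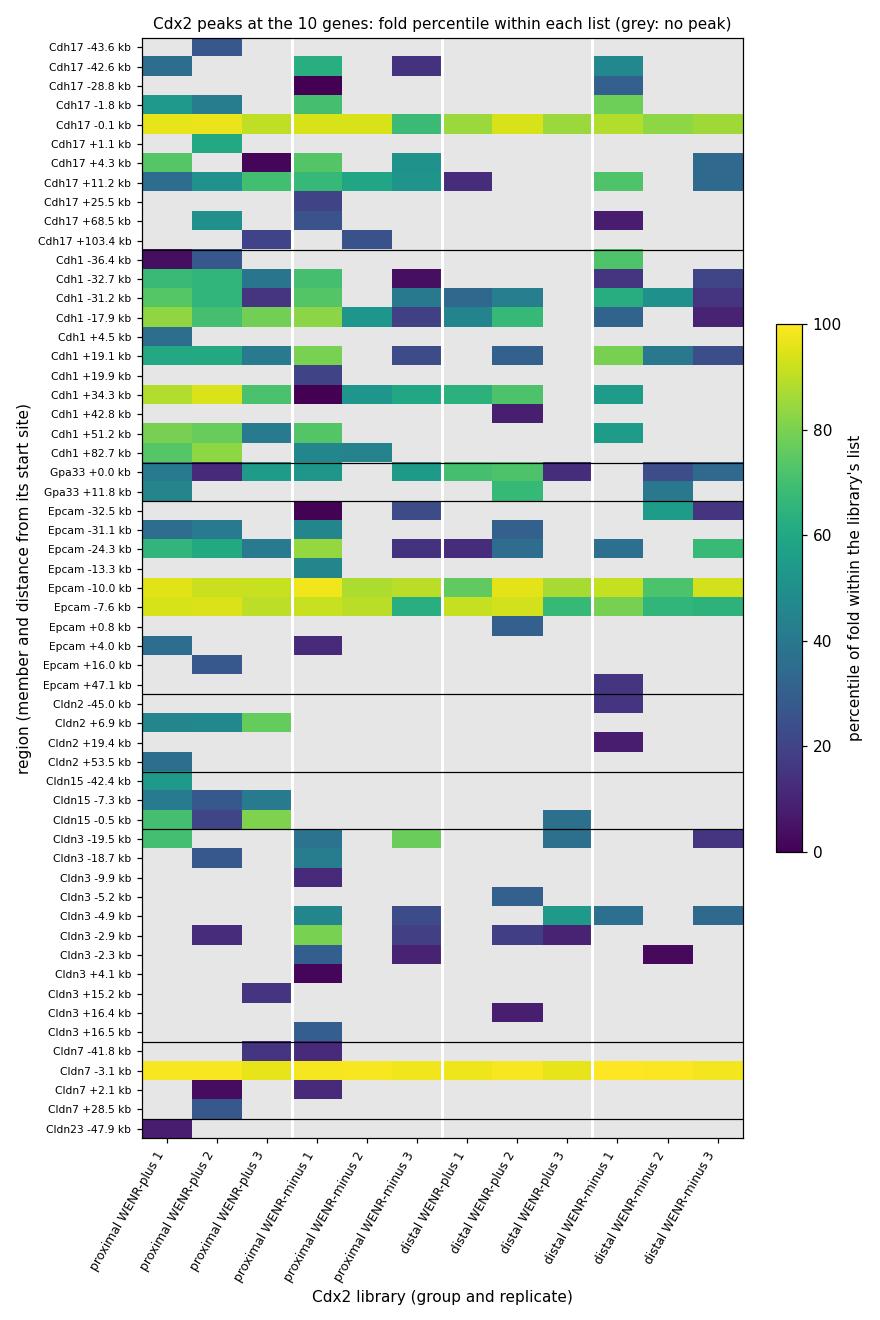
Heat map of the 57 regions (rows, by gene and distance of the summit from the nearest start site of that gene, in kb; the 8 regions shared by the Cldn3 and Cldn4 windows are drawn under Cldn3) in the 12 Cdx2 libraries (columns), coloured by fold percentile within the library's list, with grey where no peak was called. The 4 rows filled across all 12 libraries are Cldn7 at 3.1 kb, Epcam at 10 kb and 7.6 kb, and Cdh17 at its start site.

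**Figure D2:**
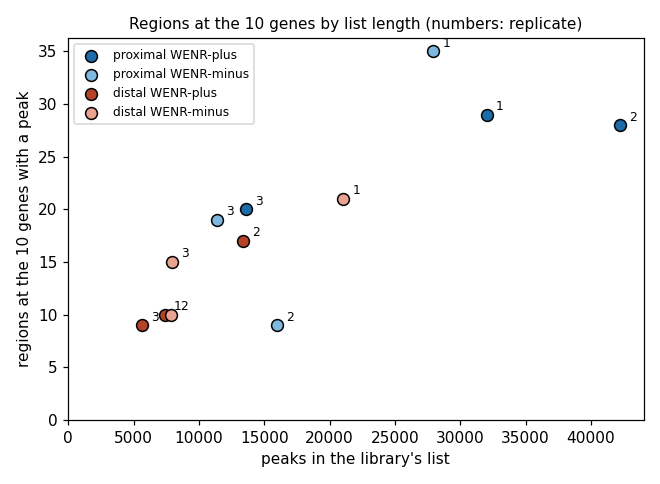
Number of the 57 regions with a peak in each of the 12 Cdx2 libraries against the number of peaks in its list, coloured by group and numbered by replicate. The shortest list (5608 peaks) and the proximal WENR-minus list of 15940 peaks each held 9 of the regions.

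Cdh17 encodes liver-intestine cadherin, a calcium-dependent adhesion molecule of the intestinal epithelium and a known Cdx2 target. It had 11 regions, more than 95.5% of protein-coding genes, and its start site was occupied in all 12 libraries. The region at chr4:11757659-11758479 had its median summit 68 bp upstream of the start site. Its fold percentiles were 96.2, 97.2 and 90.4 in proximal WENR-plus and 94.1, 94 and 68.2 in proximal WENR-minus. In the distal organoids they were 85.1, 94 and 85 in WENR-plus and 88.5, 83.2 and 85.6 in WENR-minus. Every proximal WENR-plus value lay above every distal WENR-minus value, the other pairs of groups overlapped, and the lowest value came from replicate 3 of proximal WENR-minus. The summits of the 12 lists fell within 182 bp of each other. A second Cdh17 region, in an intron 11250 bp downstream of the start site, was called in 9 libraries, 6 proximal and 3 distal, with percentiles from 12.5 to 72.4. Near the start site, a region 1837 bp upstream was called in 4 libraries and one 1059 bp downstream in 1. The 7 other Cdh17 regions were called in 1 to 5 libraries each. For 7 of the 11 the nearest start site was that of Cdh17.

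Cdh1 encodes E-cadherin, the main cadherin of epithelial adherens junctions. It also had 11 regions, but none within 3 kb of a start site. The regions called most widely lay 31168 and 17924 bp upstream (10 libraries each) and in introns 19123 and 34317 bp downstream (9 libraries each). At the region 17924 bp upstream, chr8:106585098-106585767, the percentiles were 83.4, 70.4 and 78.6 in proximal WENR-plus and 82.7, 52.5 and 19.1 in proximal WENR-minus. Peaks were called in 2 of 3 distal WENR-plus libraries, at 45.2 and 66.9, and in 2 of 3 distal WENR-minus libraries, at 32.2 and 10.1. The proximal WENR-plus values lay above the distal values in these lists of unequal length, and with lists of equal length the region was left in 5 libraries. At the intronic region 34317 bp downstream, chr8:106638106-106638922, the percentiles were 88.6, 94.4 and 71.2 in proximal WENR-plus and 0.288, 52.5 and 60.1 in proximal WENR-minus. In the distal organoids that region was called at 64.2 and 72.1 in WENR-plus and once, at 55.2, in WENR-minus. The value of 0.288 came from proximal WENR-minus replicate 1, which had the peak near the bottom of its list at a fold of 2.74. The region 31168 bp upstream was called in 5 of 6 libraries of each site, at percentiles from 15.4 to 73.8, and the intronic region 19123 bp downstream in 5 proximal and 4 distal libraries at 23.1 to 79.7. The 4 regions upstream of the gene had start sites of other genes nearer to them, as did 3 of those downstream. The other 7 Cdh1 regions were called in 1 to 7 libraries.

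Gpa33 encodes the A33 antigen, an immunoglobulin-family surface protein of intestinal epithelium. It had 2 regions, and one of them was at its start site. That region, chr1:166129994-166130506, had its median summit 16 bp downstream of the start site in the annotated UTR. It was called in all 3 libraries of each WENR-plus group and in 2 of 3 libraries of each WENR-minus group. Its percentiles were 41.3, 12.3 and 54.7 in proximal WENR-plus, 52.8 and 54.6 in proximal WENR-minus, 70.6, 72.1 and 13.1 in distal WENR-plus and 23.6 and 34 in distal WENR-minus. The proximal WENR-minus values lay above the distal WENR-minus values, the other pairs of groups overlapped, and the median of 47 lay under the medians of 89.4 to 98.8 of the 4 regions called in every library. The Cdx2 word printed above lies upstream of the start site, with its centre 57 bp from the summit. The other Gpa33 region, in an intron 11814 bp downstream, was called in 3 libraries.

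Epcam encodes a homophilic adhesion molecule of epithelia that binds claudin 7. It had 10 regions, of which 2, next to each other upstream of the gene, were called in all 12 libraries. At the region 10025 bp upstream, chr17:87624761-87626300, the percentiles were 95.7, 91.9 and 91.5 in proximal WENR-plus and 98, 87.7 and 89.5 in proximal WENR-minus. The distal values were 75.5, 95.9 and 86.8 in WENR-plus and 91.2, 71.7 and 93 in WENR-minus. The sites overlapped, and both values under 80 were distal. At the region 7629 bp upstream, chr17:87628012-87628739, the percentiles were 93.9, 94.8 and 90.1 in proximal WENR-plus and 91.5, 89.6 and 62.6 in proximal WENR-minus. The distal percentiles were 91.1, 93.1 and 67 in WENR-plus and 79.4, 66 and 64.8 in WENR-minus. The lowest proximal WENR-plus value there exceeded every distal WENR-minus value. A further region, 24278 bp upstream, was called in 9 libraries, 5 proximal and 4 distal, at percentiles from 12.5 to 84. Within 3 kb of an Epcam start site there was 1 peak, 777 bp downstream, in 1 distal WENR-plus library. The other 6 regions were called in 1 to 4 libraries.

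Cldn7 encodes a claudin of the lateral membrane that is common in colon epithelium. It held the region of highest median percentile (98.8) at the 10 genes, 3119 bp upstream of the nearest annotated start site in intergenic sequence (chr11:69961013-69962175), so just outside the 3 kb taken as promoter. Its percentiles were 99, 99.1 and 96.1 in proximal WENR-plus, 98.5, 99.1 and 97.8 in proximal WENR-minus, 97.6, 99.2 and 96.4 in distal WENR-plus and 99.8, 99.3 and 98.3 in distal WENR-minus. The 4 groups overlapped, and no library placed the region under 96.1. Its fold enrichment over input ran from 14.5 to 26.1 with a median of 20.2, and the 12 summits fell within 126 bp of each other. Within 3 kb of a Cldn7 start site there was 1 region, 2134 bp downstream in an intron of the neighbouring gene Elp5, called in 2 proximal libraries at percentiles 3.16 and 12.3. The other Cldn7 regions were called in 1 or 2 libraries, all proximal, with no percentile over 27.6.

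The regions called most widely at Cldn2 and Cldn15 were called mainly in proximal WENR-plus organoids, the group with the longest list. The share of all regions called in all 3 of those libraries and in no other was not computed. Cldn2, which forms a channel for cations and water, had 4 regions. The one 6894 bp downstream of a start site and beyond the gene's end, chrX:139812849-139813153, was called in all 3 proximal WENR-plus libraries, at percentiles 45.7, 46.5 and 76.5, and in no other library. The other 3 Cldn2 regions were each called in 1 library. Cldn15, which forms a sodium channel in the intestine, had 3 regions. The one 523 bp upstream of a start site, inside an intron of a longer transcript (chr5:136967024-136967589), was called at 70.1, 20.9 and 80.5 in proximal WENR-plus and at 37.1 in replicate 3 of distal WENR-plus. The one 7255 bp upstream, in an intron of the neighbouring gene Fis1 (chr5:136959183-136959536), was called at 41.1, 27.6 and 41.7 in proximal WENR-plus and in no other library. When every list was shortened to its 5608 strongest peaks, these regions at Cldn2 and Cldn15 were left in 1, 2 and 0 libraries, while the 4 regions at Cldn7, Epcam and Cdh17 stayed in all 12.

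Cldn3 and Cldn4 encode receptors for a clostridial enterotoxin and lie next to each other on chromosome 5, so that 8 regions fall in both windows. Cldn3 had 11 regions and Cldn4 the 8 shared ones, none of which had a Cldn4 start site nearest. No region here was called in more than 5 libraries. The region 4872 bp upstream of Cldn3, chr5:134981104-134981559, was called in 2 proximal and 2 distal WENR-minus libraries and in 1 distal WENR-plus library, at percentiles from 23.1 to 53.9. A region 2860 bp upstream of Cldn3 was called in 5 libraries at 9.56 to 79.7 and one 2328 bp upstream in 3 libraries at 2.72 to 29.7. The region 19461 bp upstream of Cldn3 and 19819 bp upstream of Cldn4, chr5:134966294-134966928, had the highest median percentile of those in 5 libraries, at 38.1. It was called at 70.1 in 1 proximal WENR-plus library, 38.1 and 77 in 2 proximal WENR-minus libraries, 37.1 in 1 distal WENR-plus library and 15.5 in 1 distal WENR-minus library. Cldn23, a claudin of differentiated colon epithelium, had a single region, 47870 bp upstream in an intron of another gene, in replicate 1 of proximal WENR-plus at percentile 7.94.

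**Figure D3:**
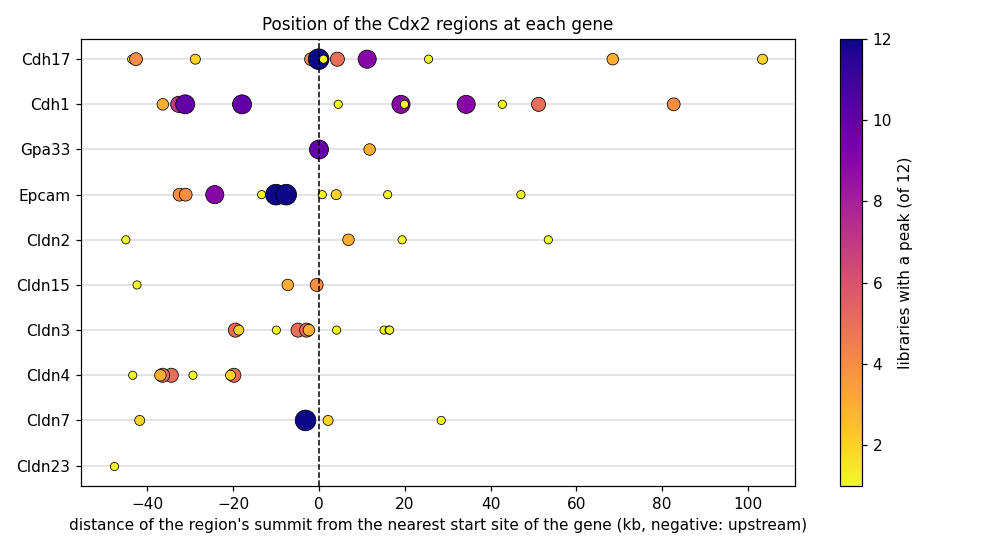
Position of each region's median summit relative to the nearest start site of the gene (kb, negative upstream), 1 line per gene, with larger and darker points for regions called in more of the 12 libraries. Cdh17 and Gpa33 have a widely called region at the start site, whereas the widely called regions of Cdh1, Epcam and Cldn7 lie 3.1 kb or more away.

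A region within 3 kb of a start site was found in at least 1 library for 6 of the 10 genes, against 22.5% of protein-coding genes. Libraries with one numbered 12 for Cdh17, 10 for Gpa33, 6 for Cldn3, 4 for Cldn15, 2 for Cldn7 and 1 for Epcam. Cdh17 was the only one of the 10 with such a region in all 3 libraries of every group. In proximal WENR-plus 3 genes had one in all 3 libraries (Cdh17, Gpa33 and Cldn15), against 6.19% of protein-coding genes. For distal organoids in WENR-plus these were 2 genes (Cdh17 and Gpa33), against 2.06%. In WENR-minus it was 1 gene (Cdh17) at either site, against 4.02% in proximal and 2.74% in distal organoids. A region called in all 12 libraries lay in the 50 kb window of 3 of the 10 genes, against 12.9% of protein-coding genes. The proximal WENR-plus count fell from 3 to 1 with lists of equal length and with peaks of −log10 q of at least 5, and the latter also took the distal WENR-plus count from 2 to 1. Without replicate 2 the proximal WENR-minus count was 3, and without replicate 1 the distal WENR-minus count was 2.

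Proximal and distal organoids were then compared for the presence of peaks, which bears on whether Cdx2 binds these genes differently along the colon. Of the 35 regions at these genes called in at least 2 libraries, 25 were called in more proximal than distal libraries, 2 in more distal libraries and 8 in equal numbers. The share of 71.4% called more often in proximal libraries lay under the 76.3% of all 35518 such regions. By two-sided Fisher's exact test over 6 proximal and 6 distal libraries, 0 of the 35 had an unadjusted p under 0.05, against 4.96% of all regions in the proximal and 0.282% in the distal direction. The lowest p was 0.0606 (Benjamini-Hochberg adjusted p = 0.582, Fisher's exact test), for a region 82689 bp downstream of a Cdh1 start site, in an intron of Tango6, that was called in 4 proximal libraries and no distal one. The organoids came from 3 mice and each site was sampled in both media, so the 6 libraries of a site are not independent. With same-numbered libraries of a site taken as 1 line, a two-sided exact permutation test over 3 and 3 lines gave p = 0.4 for that region, and it cannot go below 0.1. That matching is assumed, and same-numbered distal libraries did not all deviate together. After adjustment 0% of all regions passed, and the smallest adjusted p in these data was 0.114, so this test could make no call. Only in WENR-plus were any of these regions called in all 3 libraries of one site and in none of the other. They numbered 4 of 45 (8.89%), all proximal, against 5.44% of all regions, and lay at Cdh1 (32664 bp upstream and 51202 bp downstream), Cldn2 and Cldn15. In the distal direction there were 0, against 0.173%. In WENR-minus there were 0 of 41 in either direction, against 3.27% of all regions that were proximal and 0.534% that were distal. With lists of equal length the count of 4 fell to 0, and without replicate 3 it was 8. Neither setting is an independent check. The cut keeps the strongest 5608 peaks, and none of the 4 was above percentile 76.7 in the longest list (42192 peaks). Leaving out a replicate asks for fewer libraries, and shares of all regions under these settings are not given here.

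Withdrawal of the niche factors was compared within each site. In proximal organoids 3 of 50 regions (6%) were called in all WENR-plus and no WENR-minus libraries, against 0.795% of all regions. These were the regions at Cldn2 and Cldn15 described above, and the one in a Fis1 intron had the Fis1 start site nearest. Whether this pattern belongs to pore-forming claudins as a class was not tested. No region here showed the opposite pattern, against 0.128% of all regions. In distal organoids 0 of 34 regions were called in all WENR-plus and no WENR-minus libraries, against 0.295%, and 0 the other way, against 0.941%. The proximal count of 3 also fell to 0 with lists of equal length. In the longest list, proximal WENR-plus replicate 2, these regions had percentiles of 46.5, 20.9 and 27.6, which a cut to 5608 peaks removes. The part of list length in it was not tested further. With 3 libraries against 3, an exact test cannot go below 0.1.

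At the 4 regions called in every library, the fold percentiles were turned into normal scores (standard normal units) and fitted with limma across the 2079 regions called in all 12 libraries. None of the 4 passed an adjusted p under 0.05 for site or medium, with limma adjusted p from 0.412 to 0.999 and no unadjusted p under 0.164. For proximal minus distal in WENR-plus, the differences were 0.11 ± 0.32 at Cldn7, 0.32 ± 0.381 and 0.4 ± 0.374 at the Epcam regions 10025 and 7629 bp upstream, and 0.45 ± 0.354 at Cdh17 (SE). All 4 were higher in proximal organoids, but with lists of equal length all 4 were lower, at −0.43, −0.54, −0.41 and −0.21. Of all 2079 regions 3.99% passed in that comparison (83 regions, against 178 with a replicate block, 129 on log2 fold and 0 to 1 without 1 replicate number). Lists of equal length left 1022 regions called in all 12 libraries, and 1 passed there. For the sites in WENR-minus 0.241% passed (5 regions, against 62 on log2 fold, 0 with lists of equal length and 0 without any 1 replicate number). For WENR-minus minus WENR-plus, the Epcam region 7629 bp upstream gave −0.5 ± 0.374 in proximal and −0.55 ± 0.374 in distal organoids (SE). The limma adjusted p was 0.976 and 0.685, and the percentiles of the media overlapped at either site. At Cldn7 the differences were 0.02 ± 0.32 in proximal and 0.42 ± 0.32 in distal organoids (SE). At Cdh17 they were −0.47 ± 0.354 and −0.14 ± 0.354 (SE). In proximal organoids, where same-numbered libraries deviated together, the score was lower in WENR-minus in 3 of 3 same-numbered pairs at Cdh17 and at the Epcam region 7629 bp upstream. Distal libraries of the same number did not all deviate together. Matched by number as a description only, they were higher in WENR-minus in 0 of 3 pairs at that Epcam region. The distal counts were 2 of 3 at Cdh17 and 3 of 3 at Cldn7, where it was 1 of 3 in proximal organoids. The Epcam region 10025 bp upstream differed by −0.01 ± 0.381 and −0.05 ± 0.381 (SE). Of all regions 0% passed for the medium in proximal organoids (64 had an unadjusted limma p under 0.05) and 0.0481% in distal organoids. The medium effect did not pass as different between the sites at any of the 4 (limma adjusted p from 0.895 to 0.991), and 0% of all regions passed there (92 at an unadjusted limma p under 0.05). Standard errors of the site and medium differences were 0.32 to 0.381 with 3 libraries a group, and the largest difference in size was −0.55. No detection limit was computed, so a difference that did not pass is not shown to be absent.

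**Figure D4:**
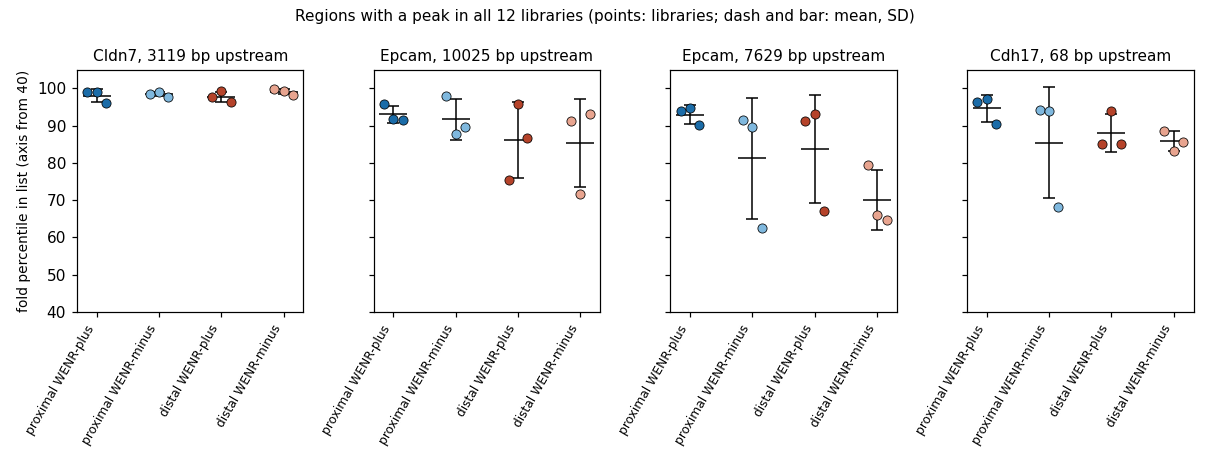
Fold percentile within each library's list (vertical axis, from 40) at the 4 regions called in all 12 libraries, by group, with 1 point per library and a dash and bar for the mean and SD (n = 3). All Cldn7 points lie at 96.1 or above, while the Epcam region 7629 bp upstream spreads from 62.6 to 94.8.

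A Cdx2 word lay within 50 bp of the summit in 29 of the 57 regions (50.9%), against 60.4% of all regions and 11.7% of windows of the same size 1000 bp away. Among regions called in at least 9 libraries it was found in 7 of 11, against 71.3% of all such regions, and among those called in 1 library in 11 of 22, against 51.7%. Within 100 bp the count here was 39 (68.4%), against 80.2% of all regions. The 4 regions called in at least 9 libraries that had no word within 50 bp were those at Cldn7, where one begins 45 bp from the summit and ends just past the window, at the Gpa33 start site, 17924 bp upstream of Cdh1 and 11250 bp downstream of the Cdh17 start site. The 3 regions at Cldn15 held none either. In the RefSeq promoter table of the same assembly (250 bases before to 50 after a start), 7 of the 10 genes had an entry. A word was present in 3 of their 8 promoters, those of Cldn2, Epcam and Gpa33, against 14.4% of 32851 promoters. Of these 3, only the Gpa33 promoter had a peak in more than 1 library.

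Other genes of junctions and adhesion were counted in the same way. Of a list of 46, 8 (17.4%) had a region called in all 12 libraries in their window, against 12.9% of protein-coding genes. A promoter region in at least 1 library was found for 13, against 22.5% of protein-coding genes. Among the 14 other claudins on that list these counts were 1 (Cldn8) and 3. The one gene of the list with a promoter peak in all 12 libraries was Cdhr5, which encodes a protocadherin of brush border microvilli. The median was 3 regions a gene, against 2 over protein-coding genes, and 7 of the 46 had none. Across the 12 libraries, the regions whose normal scores followed the Cldn7 region most closely lay near Atp6ap1l (159 kb from its start site, Pearson r = 0.91), Cbl (23.8 kb, 0.862) and Gm26657 (46.6 kb, 0.862), of 2079 regions compared. The 12 points share lines and media, so these values are a description only.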

How the data were processed

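Peak lists of 12 Cdx2 ChIPmentation libraries (mouse colon organoids, 2 sites by 2 media, 3 replicates) were analysed. Per the submitters' processing notes, the authors' pipeline ran Trimmomatic 0.39 for trimming, Bowtie2 2.4.5 for alignment to mm10, SAMtools 1.13 to drop duplicates, and MACS2 2.2.7.1 to call the peaks of each library over its own input (q-value 0.01). The study's own software list gives other versions of Bowtie2 and SAMtools. The deposited columns hold a score, the fold enrichment over input as a ratio, and −log10 p and −log10 q values, all made by the authors' peak caller. The read totals stated by the study were not used here, so no depth is given. The other deposited columns are the peak's position and its summit offset.

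Peaks on chromosomes 1 to 19, X and Y that overlapped by at least 1 bp were joined into regions. A region's summit was the median over libraries, taking each library's peak of highest fold. Fold was ranked within each list, with ties at their mean rank. Presence was tested with two-sided Fisher's exact tests (SciPy 1.17.1) over regions in at least 2 libraries, and normal scores with limma 3.58.1 (R 4.3.3) on group means without a replicate term. Both scripts were tested on simulated data. The members and lists were chosen with earlier results of these data known. All 10 genes were named. For each, the most widely called region, all regions in 12 libraries, those within 3 kb of its start site and any called in all libraries of one site and at most 1 of the other (there were none) were described. Regions exclusive to 1 group of 3 were named after their values were seen.

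The labels number the replicates in every group, and the sources used here do not tie a number to a mouse. Same-numbered libraries deviated together (every correlation of deviations from the group means over 0.1) between sites in WENR-minus (0.126, 0.12 and 0.393) and between media in proximal organoids (0.159, 0.274 and 0.476). The labels' protocol text writes ENSW for the media that the sample titles call WENR. Alternatives were other windows, peak thresholds, overlaps, lists of equal length (5608 peaks), a replicate term, log2 fold and leaving out replicates.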

Additional observations from a re-analysis of the deposited data

How the results depend on the processing

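The 57 regions became 31 with windows of 10 kb, 37 with peaks of −log10 q of at least 5 and 21 with lists of equal length, and 45 to 56 without 1 replicate number. Regions called in all 12 libraries stayed at 4, except for 7 with windows of 100 kb. Genes with a promoter peak in every proximal WENR-plus library fell from 3 to 1 with the stricter peaks and with lists of equal length, and in every distal WENR-plus library from 2 to 1 with the stricter peaks. Leaving out 1 replicate number, an alternative added after the data were seen, gave 1 to 3 such genes in proximal WENR-minus (3 without replicate 2) and 1 to 2 in distal WENR-minus (2 without replicate 1). Regions exclusive to proximal WENR-plus went from 4 (against distal) and 3 (against WENR-minus) to 0 and 0 with lists of equal length, and to 5 to 8 and 3 to 4 without 1 replicate number, likewise added later. Lists of equal length drop the weaker peaks of the longer lists, and leaving out a number asks for fewer libraries. Cdx2 words within 25 bp of the summit were found at 14 regions. The causes were not tested.

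Calls by limma moved with the setting. They were made over 2079 regions, except that lists of equal length left 1022 called in all 12 libraries. For the sites in WENR-plus, 83 regions passed, against 178 with a replicate block, 129 on log2 fold, 1 with lists of equal length and 0 to 1 without 1 replicate number. For the sites in WENR-minus 5 passed, against 62 on log2 fold, 0 with lists of equal length and 0 without any 1 replicate number. For the medium in distal organoids 1 passed, against 0 on log2 fold and 0 without any 1 replicate number. The replicate block changed no call at the 4 regions of these genes, none of which passed under any setting (limma adjusted p from 0.231 to 1). Correlations of same-numbered libraries were 0.178, 0.0439 and 0.388 between sites in WENR-plus and 0.236, −0.0273 and 0.315 between media in distal organoids, so the numbers were not taken as pairs there. The exact permutation test of presence nevertheless took same-numbered distal libraries as 1 line.

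Of 120 differences at the 4 regions under these settings (normal scores, or log2 fold where named), 24 changed sign, none past the threshold. For proximal minus distal in WENR-plus, log2 fold gave −0.12 at Cldn7, −0.2 and −0.14 at the Epcam regions 10025 and 7629 bp upstream and −0.01 at Cdh17, and lists of equal length gave −0.43, −0.54, −0.41 and −0.21. For the sites in WENR-minus, Cdh17 was at −0.02 and −0.2 in these settings. For the medium in proximal organoids, the Epcam region 10025 bp upstream was at 0.26 and 0.41, and for the difference of the medium effects Cdh17 was at 0.01 with lists of equal length. Without 1 replicate number, the site difference in WENR-plus ran from −0.02 to 0.17 at Cldn7 and from −0.04 to 0.64 at the Epcam region 10025 bp upstream, and in WENR-minus from −0.12 to 0.48 at Cdh17. Likewise the medium difference in proximal organoids ran from −0.09 to 0.11 at Cldn7 and from −0.18 to 0.11 at the Epcam region 10025 bp upstream, and in distal organoids from −0.4 to 0.51 at that region and from −0.28 to 0.09 at Cdh17. The difference between the medium effects ran from −0.4 to 0.3 and from −0.28 to 0.53 at the Epcam regions 10025 and 7629 bp upstream.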
